A study of Mus musculus with 6 samples.

Results

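The antioxidant and glutathione genes are 37 genes named by function, of which 34 had at least 1 named probe among the 19057 genes with a named probe on the array. They comprise glutathione synthesis and recycling (Gclc, Gclm, Gss, Gsr), glutathione peroxidases (Gpx1, Gpx3, Gpx4, Gpx7, Gpx8), glutathione transferases (Gsta3, Gsta4, Gstm1, Gstm2, Gstm5, Gstt1, Gsto1, Gstp1, Gstk1, Mgst1, Mgst3), superoxide dismutases (Sod1, Sod2, Sod3), the thioredoxin system (Prdx1 to Prdx6, Txn1, Txn2, Txnrd1) and the Nrf2 axis (Hmox1, Nqo1, Nfe2l2, Keap1, Srxn1). Members were found by gene symbol, which gave 67 probes. No level was used to choose them, but the list was drawn up with earlier results of these data known. No probe named Gsr, Prdx5 or Prdx6 was found. Gpx3 was detected on no array and was not tested, so 33 members and 55 of their probes entered the test.

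Total RNA of 3T3-L1 adipocytes was hybridised to 6 Illumina mouse bead arrays. 3T3-L1 is an established mouse fibroblast line that becomes fat-storing in culture. Of the samples, 3 were from cells given 500 nM dexamethasone (DEX, a synthetic glucocorticoid) for 6 h and 3 from cells given ethanol, the vehicle, for the same time. Both groups had been kept in hormone-stripped serum beforehand, and both had met DEX once before, in the mixture that made them adipocytes. The methods state that the treatment was run 3 times but not whether on cultures differentiated separately. Each p-value below rests only on the spread of these samples. The test used, limma, draws the variance of each probe toward that of all tested probes. A standard error therefore need not follow from the SDs printed beside it.

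Cells remove superoxide in steps. Superoxide dismutases turn it into hydrogen peroxide, and catalase, glutathione peroxidases and peroxiredoxins turn the peroxide into water. Glutathione, a small thiol made by glutamate-cysteine ligase and glutathione synthetase, supplies the electrons for the peroxidases and is coupled to reactive lipids and drugs by glutathione transferases, whereas thioredoxin and thioredoxin reductase recharge the peroxiredoxins. Many of these genes are targets of the transcription factor Nrf2, which is held down by Keap1 and acts through a short DNA motif, the antioxidant response element. Fat cells carry a large oxidative load from lipid storage, and Gsta4 is known for removing lipid aldehydes in mouse fat.

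The core of the antioxidant response element, TGACNNNGC, was searched on both strands from 250 bases before to 50 bases after each start site, in RefSeq sequence of mouse build GRCm38.p6. It was found in 9 of the 31 members with such a window (29%), beside 14% of all 27025 genes. The difference between these shares was not tested. Sequence outside the window was not searched, so a member without a match may hold the core elsewhere. The 9 matches are shown so that the members which did and did not respond can be read side by side. Each line gives 29 bases in the direction of the motif, with the core in capitals, the strand printed and the distance from the start site to the core.
Gsta3, chr1:21240454-21240482, plus strand, 121 bases before the start: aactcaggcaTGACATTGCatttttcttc
Gclm, chr3:122245413-122245441, minus strand, 134 bases before the start: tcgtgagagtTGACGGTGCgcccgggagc
Gstm5, chr3:107895802-107895830, plus strand, 42 bases before the start: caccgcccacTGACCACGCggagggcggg
Mgst1, chr6:138140461-138140489, minus strand, 56 bases before the start: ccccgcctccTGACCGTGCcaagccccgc
Sod1, chr16:90220696-90220724, minus strand, 56 bases before the start: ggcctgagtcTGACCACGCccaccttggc
Prdx1, chr4:116685456-116685484, minus strand, 133 bases before the start: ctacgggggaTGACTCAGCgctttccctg
Txnrd1, chr10:82859104-82859132, minus strand, 92 bases before the start: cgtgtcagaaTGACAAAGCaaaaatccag
Nfe2l2, chr2:75704885-75704913, minus strand, 240 bases before the start: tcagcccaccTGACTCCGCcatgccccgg
Srxn1, chr2:152105542-152105570, minus strand, 29 bases after the start: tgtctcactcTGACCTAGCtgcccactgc

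A match of letters is a description and was not taken as a bound site. Of these 9 genes, Gsta3 rose with DEX and the other 8 did not pass the main test in either direction, as given below. Gclm did pass as lower with the replicate numbers as pairs (adjusted p = 0.0112, limma), with array weights and without DEX replicate 1. Gclc, Gsr, Gsta4, Sod3, Prdx6 and Hmox1 had no window in the table.

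The arrays were of similar quality, with 15800 to 16523 probes detected on each and correlations of 0.974 to 0.994 within a group and 0.958 to 0.978 between groups. Levels are log2 bead signals after background correction and quantile normalisation, and they compare samples for 1 probe, not probes with each other. All 6 known glucocorticoid-induced genes examined were higher in DEX, from 3.46-fold for Dusp1 to 64.4-fold for Fkbp5. Of 10 adipocyte markers, 9 had a probe and all 9 were tested. They ran from -1.03 to 0.49 with a median log2 fold change of 0.09, 5 above 0 and 4 below, and 1 passed, Plin1, a lipid droplet coat protein, which fell by 1.03. Preadipocyte markers were also present, with Dlk1 at 13.53 to 14.03 over the 6 arrays. Of 6 such markers, 4 were tested and none passed, with log2 fold changes from -1.09 for Gata2 (adjusted p = 0.119) to 0.63 for Pdgfra (adjusted p = 0.0510), and the part of either marker list in the members' values was not tested. Ptprc, Adgre1, Csf1r and Cd3e, markers of macrophages and blood cells, were detected on no array, Cd14 was detected on 3 vehicle and 2 DEX arrays, and none of 4 endothelial markers was tested. In RNA from a whole dish, fewer cells of a type and less RNA per cell cannot be told apart.

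Most antioxidant genes did not pass the test after 6 h of DEX. Gsta3, a glutathione transferase, rose 4.13-fold, Hmox1, the inducible heme oxygenase, fell 2.42-fold, and the other 31 tested members did not pass at an adjusted p of 0.05 by limma with Benjamini-Hochberg adjustment over all 16317 tested probes. That is 1 member higher and 1 lower, where 4.52% of the 9144 tested genes were higher and 3.06% lower (7.58% in either direction), each gene read by its brightest probe. These counts come from the main fit, which did not pair the replicate numbers. With the numbers as pairs, Gclm (adjusted p = 0.0112) and Gsta4 (adjusted p = 0.0309) also passed as lower (limma). In that fit 3 members were lower, where 5.95% of all tested genes were, and 1 was higher, where 6.56% were. At an unadjusted p under 0.05, 2 of the 33 members were higher and 4 lower, where 10% of all tested genes were higher and 11.9% lower. The log2 fold changes of the members ran from -1.27 to 2.05, with a median of -0.19 beside -0.06 for all tested genes, and 25 of the 33 were below 0 beside 57.7% of all tested genes. On the brightest probe, groups did not overlap for 10 members. Of these, 2 were higher in DEX (Gsta3 and Gpx1) and 8 lower (Gclm, Gss, Gstm1, Mgst1, Sod1, Sod2, Hmox1 and Keap1). Of all tested genes, 12.2% were higher and 15.7% lower without overlap (27.9% in either direction). By size of change, Gsta3 ranked 79 and Hmox1 222 of the 9144 genes. For 19 of the 33 members the 95% interval of the difference, not adjusted for the number of genes, lay within 1.5-fold in either direction, beside 46.1% of all tested genes.

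**Figure D1:**
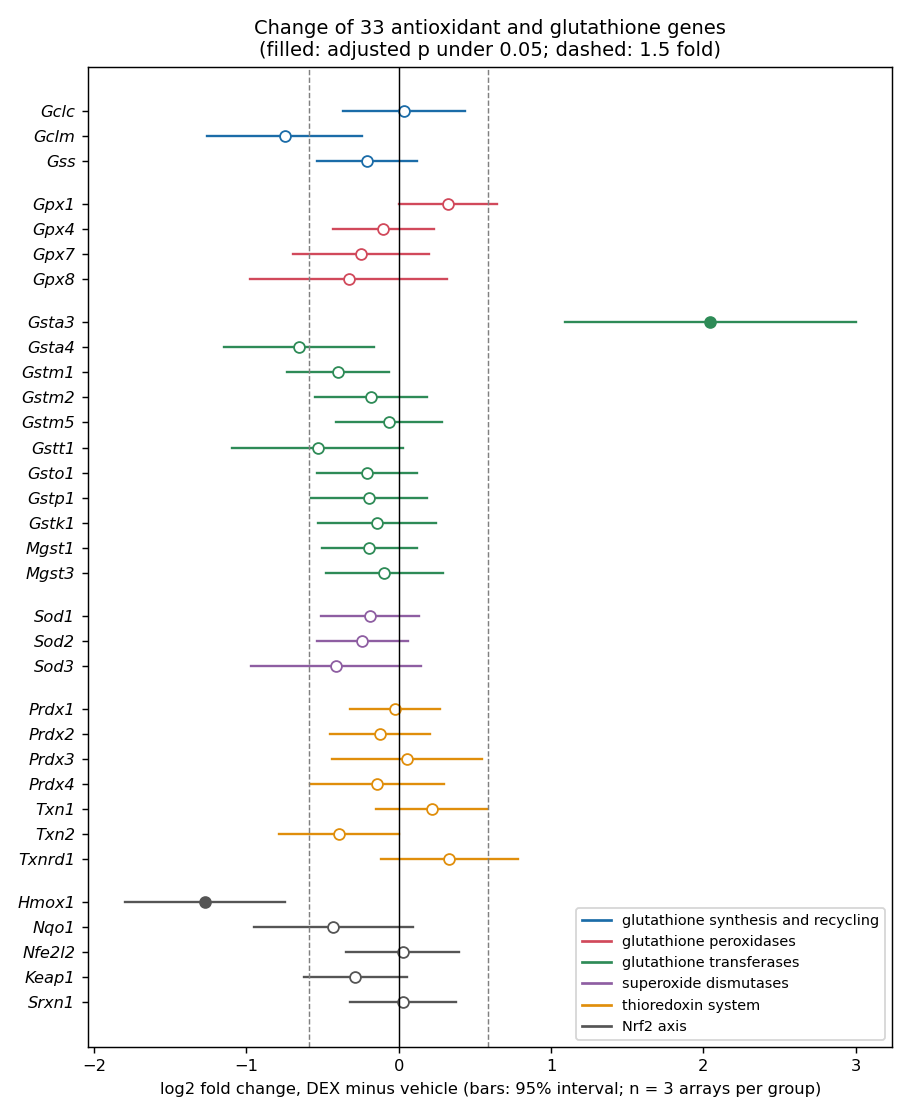
Log2 fold change, DEX over vehicle (x axis), of each of the 33 tested members on its brightest probe, coloured by subgroup, with bars for the 95% interval from limma (n = 3 a group), filled points for an adjusted p under 0.05 and dashed lines at 1.5-fold. Gsta3 at 2.05 and Hmox1 at -1.27 are the filled points, and 25 of the 33 points lie below 0.

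Glutathione transferases couple glutathione to reactive compounds, and 1 of the 11 rose, none fell and 10 did not pass. Gsta3, an alpha-class cytosolic enzyme that in rodents acts on electrophiles such as aflatoxin epoxide, was at 8.93, 7.25 and 7.78 in the vehicle samples and at 10.73, 9.47 and 9.90 in the DEX samples. Every DEX sample lay above every vehicle sample, and replicate 1 was the highest of both groups. The means were 7.99 ± 0.86 and 10.03 ± 0.64 (SD, n = 3), a log2 fold change of 2.05 with a standard error of 0.42 (adjusted p = 0.0191, limma), or 4.13-fold with a 95% interval of 2.13 to 8.01. Within replicate numbers, the differences were 1.80, 2.22 and 2.12, and the standard error fell to 0.14 with the numbers as pairs (adjusted p = 7.60e-05, limma). Without pairing, the call was lost when vehicle replicate 2 (1.67, adjusted p = 0.0701), vehicle replicate 3 (1.94, adjusted p = 0.0658) or DEX replicate 3 (2.12, adjusted p = 0.0602) was left out, and also when undetected probes were kept in the test (adjusted p = 0.149). A second Gsta3 probe was detected on 0 vehicle and 2 DEX arrays and was not tested. It read 4.50 to 4.57 in vehicle and 4.77 to 5.24 in DEX, without overlap. Its bound was 1.02-fold higher in DEX, with the mean of all 3 DEX arrays, detected or not, set over a vehicle level. For that level, the lowest signal of any detected probe or the probe's own signal was taken, whichever was higher.

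The 10 remaining transferases ran from -0.65 to -0.06, all below 0, of which Gstm5 and Mgst3 turned above 0 under some alternatives. Mgst1 and Mgst3, both membrane-bound enzymes of the microsomal family, had the brightest probes among them. Mgst1 read 13.52, 13.58 and 13.74 in vehicle and 13.38, 13.45 and 13.42 in DEX, without overlap (log2 fold change -0.19 ± 0.14 (SE), adjusted p = 0.486, limma). Mgst3 read 12.88, 12.89 and 12.80 in vehicle and 13.01, 12.83 and 12.45 in DEX, with overlap (-0.09, adjusted p = 0.81, limma). The highest level of any probe on the arrays was 14.57. Gsta4, the lipid aldehyde transferase, is given by array because its call depended on the model, a choice made after its values were seen. It was at 9.29, 9.84 and 9.73 in vehicle and at 8.78, 9.39 and 8.74 in DEX, and 1 DEX sample lay within the vehicle range. Its log2 fold change was -0.65 with a standard error of 0.22 (adjusted p = 0.118, limma), or 1.57-fold lower, and with the replicate numbers as pairs its adjusted p was 0.0309 (limma). Gstm1, a mu-class enzyme, read 11.44, 11.63 and 11.77 in vehicle and 11.27, 11.13 and 11.24 in DEX, likewise named after its values were seen. Its groups did not overlap and it did not pass (-0.40, adjusted p = 0.157, limma). The others were Gstt1 at -0.53, Gsto1 at -0.20, Gstp1 at -0.19, Gstm2 at -0.18, Gstk1 at -0.14 and Gstm5 at -0.06, with adjusted p-values of 0.27 to 0.864 (limma). Gstt1, a theta-class enzyme, was detected on 2 of 3 DEX arrays, and without DEX replicate 2 it read -0.84 (adjusted p = 0.044, limma). Transferases of 1 class are close in sequence, and the probe sequences were not compared here, so a signal shared between paralogs cannot be separated.

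Within the Nrf2 axis, 1 of the 5 genes fell and 4 did not pass. Hmox1 degrades heme to biliverdin, iron and carbon monoxide and is a classic Nrf2 target. It was at 9.42, 9.62 and 9.78 in the vehicle samples and at 8.89, 8.06 and 8.05 in the DEX samples. All 3 DEX samples lay below all vehicle samples, with DEX replicate 1 nearest to them. The means were 9.60 ± 0.18 and 8.33 ± 0.48 (SD, n = 3), a log2 fold change of -1.27 with a standard error of 0.23 (adjusted p = 0.0105, limma), or 2.42-fold lower with a 95% interval of 1.68 to 3.48. The differences within replicate numbers were -0.53, -1.55 and -1.74. The call was lost without DEX replicate 2 (-1.14, adjusted p = 0.0531) and with undetected probes kept in the test (adjusted p = 0.0771).

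Nfe2l2, which encodes Nrf2 itself, read 6.90, 6.85 and 7.30 in vehicle and 7.03, 7.16 and 6.94 in DEX, and the ranges overlapped. Its log2 fold change was 0.03 with a 95% interval of -0.35 to 0.40 (adjusted p = 0.948, limma), and -0.06 when arrays were scaled by their medians. Keap1, the adaptor that marks Nrf2 for degradation, read 10.13, 10.35 and 10.47 in vehicle and 9.94, 10.10 and 10.05 in DEX. These groups did not overlap, and the difference of -0.28 did not pass (SE 0.15, adjusted p = 0.328, limma), with 4 tested Keap1 probes between -0.28 and -0.13. Srxn1, sulfiredoxin, which repairs over-oxidised peroxiredoxins and is another Nrf2 target, read 8.69, 8.95 and 8.87 in vehicle and 8.67, 9.0 and 8.93 in DEX, with overlap (0.03, adjusted p = 0.938, limma, and -0.09 with median scaling). Nqo1, a quinone reductase and the usual readout of Nrf2, was at -0.43 (adjusted p = 0.342, limma). Hmox1 passed while the Nrf2 targets Nqo1 and Srxn1 did not pass, and the difference between these responses was not tested.

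None of the 3 tested genes of glutathione synthesis passed. Gclm, the modifier subunit of glutamate-cysteine ligase, which raises the efficiency of the rate-limiting step, was at 10.55, 10.08 and 10.13 in vehicle and at 9.98, 9.34 and 9.20 in DEX. The groups did not overlap, and replicate 1 was the highest in both. The log2 fold change was -0.75 with a standard error of 0.23 (adjusted p = 0.0851, limma), or 1.68-fold lower with a 95% interval of 1.18 to 2.39. With the replicate numbers as pairs, the differences of -0.57, -0.75 and -0.93 gave a standard error of 0.14, and Gclm passed (adjusted p = 0.0112, limma). In that paired fit 3 members were lower (Gclm, Gsta4 and Hmox1), where 5.95% of all tested genes were, and 1 was higher (Gsta3), where 6.56% were. Gclm also passed without DEX replicate 1 (-0.99, adjusted p = 0.0147, limma). Gss, glutathione synthetase, read 5.94, 5.83 and 6.05 in vehicle and 5.80, 5.59 and 5.80 in DEX, with no overlap (-0.21, adjusted p = 0.474, limma). Gclc, the catalytic subunit of the ligase, was dim and read 0.04 with a 95% interval of -0.37 to 0.44 (adjusted p = 0.937, limma).

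**Figure D2:**
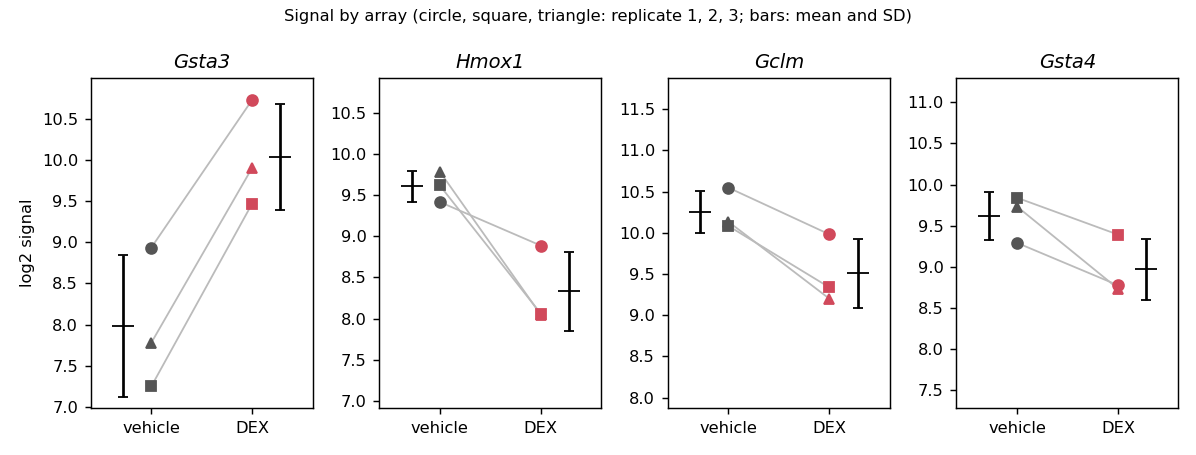
Log2 signal of Gsta3, Hmox1, Gclm and Gsta4 on each array, vehicle (grey) and DEX (red), with a marker shape for each replicate number, grey lines joining equal numbers, black bars for the mean and SD of each group (n = 3), and y axes of equal span but different position. All 3 joined pairs rise for Gsta3, from 1.80 to 2.22, and all fall for the others, with Gsta4 the gene whose groups overlap.

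Of the 4 tested glutathione peroxidases none passed. Gpx4, which reduces lipid hydroperoxides in membranes, read 13.42, 13.51 and 13.67 in vehicle and 13.29, 13.50 and 13.52 in DEX, with overlap (-0.10, adjusted p = 0.762, limma). Gpx1, the main cytosolic peroxidase, read 12.38, 12.59 and 12.56 in vehicle and 12.81, 12.95 and 12.75 in DEX. All DEX samples of Gpx1 lay above all vehicle samples, the opposite side from the other 3 peroxidases, but by 1.25-fold (log2 fold change 0.32, SE 0.14, adjusted p = 0.234, limma). Gpx7 and Gpx8, peroxidases of the endoplasmic reticulum, read -0.24 and -0.33 (adjusted p = 0.543 and 0.576, limma). The 3 tested Gpx8 probes lay between -0.51 and -0.33. Gpx3, the secreted plasma peroxidase, stayed at 4.33 to 4.88 on all 6 arrays, not above background, so no fold is given.

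The superoxide dismutases were all 3 below 0 and none passed. Sod1, the cytosolic copper and zinc enzyme, was at 13.50, 13.57 and 13.55 in vehicle and at 13.43, 13.46 and 13.17 in DEX. Its groups did not overlap on this probe (-0.19, adjusted p = 0.517, limma), but its other tested probe read 0.07. Sod2, the mitochondrial manganese enzyme, was at 12.94, 12.99 and 13.02 in vehicle and at 12.71, 12.72 and 12.80 in DEX, also without overlap (-0.24, SE 0.13, adjusted p = 0.355, limma). Both 95% intervals lay within 1.5-fold. Sod3, the extracellular enzyme, read -0.41 (adjusted p = 0.403, limma).

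The thioredoxin system had the median nearest to 0 of the 6 subgroups, -0.02 over 7 tested genes, and none passed. Prdx1, an abundant cytosolic peroxiredoxin, read 13.57, 13.64 and 13.64 in vehicle and 13.55, 13.61 and 13.62 in DEX, a difference of -0.02 (adjusted p = 0.94, limma). Prdx2, also cytosolic, read 12.37, 12.47 and 12.36 in vehicle and 12.41, 12.33 and 12.10 in DEX, with overlap (-0.12, adjusted p = 0.707, limma). Both are within 1.5-fold by their intervals. The mitochondrial Prdx3 read 0.06 and Prdx4, of the endoplasmic reticulum, -0.14 (adjusted p = 0.919 and 0.742, limma), and Prdx3 turned to -0.12 with median scaling. Thioredoxin itself, Txn1, read 0.22, its mitochondrial form Txn2 read -0.39 and thioredoxin reductase Txnrd1 read 0.33 (adjusted p = 0.504, 0.246 and 0.399, limma).

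Different probes of a gene mostly pointed the same way. Of the 14 members with more than 1 tested probe, 10 had all probes on 1 side of 0. The 4 that did not (Mgst3, Sod1, Prdx1 and Srxn1) had probes between -0.19 and 0.07. Lack of overlap did not carry over between probes. In Gss, Gstm1, Mgst1, Sod1 and Keap1 the groups were apart on the brightest probe and overlapped on every other tested probe.

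Array by array, the members' shift was uneven. The median over the 33 members of the deviation from the vehicle mean was -0.11, 0.02 and 0.08 in vehicle replicates 1, 2 and 3, and -0.20, -0.03 and -0.26 in the DEX replicates. DEX replicate 2 thus lay inside the range of the vehicle arrays, and DEX replicates 1 and 3 below it. Members below their vehicle mean numbered 26, 13 and 7 on the vehicle arrays and 26, 19 and 25 on the DEX arrays. For all tested genes the same medians were -0.03, -0.04 and -0.08 in DEX. Vehicle replicate 1 had as many members below the vehicle mean as DEX replicate 1. Without DEX replicate 3 the median log2 fold change of the members was -0.12, beside -0.04 for all tested genes.

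**Figure D3:**
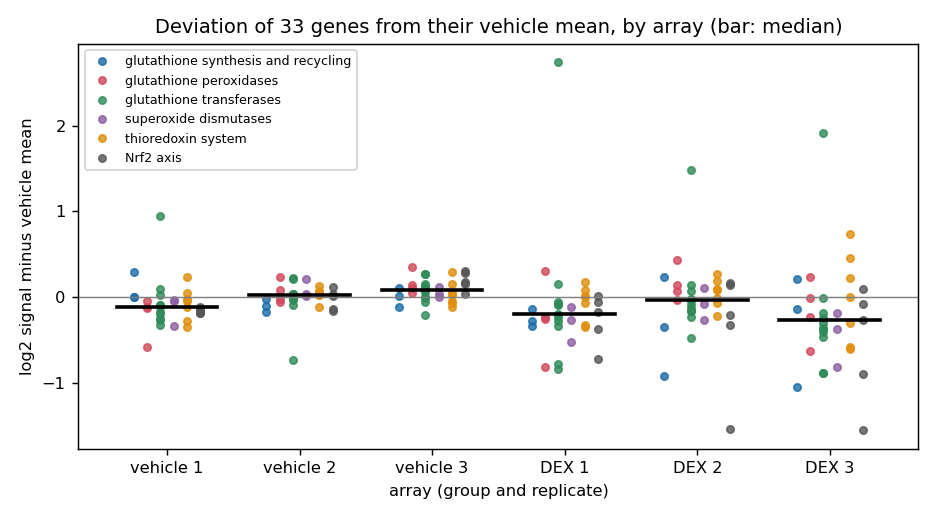
Log2 signal of each of the 33 members minus its own vehicle mean (y axis) on each of the 6 arrays (x axis), with points coloured by subgroup and a black bar for the median. DEX replicates 1 and 3 have medians of -0.20 and -0.26, DEX replicate 2 has -0.03 and vehicle replicate 1 has -0.11, and the points far above the rest on the DEX arrays are Gsta3.

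Further genes of the same pathways were also read, from a list drawn up with earlier results of these data known. Of 76 such genes, 74 had a probe and 49 were tested. Of the 49, 4 rose, none passed as lower and 45 did not pass (limma), with a median log2 fold change of -0.05. By that adjusted threshold, 4.52% of the 9144 tested genes rose and 3.06% fell. At an unadjusted p under 0.05, 7 of the 49 were higher and 5 lower, beside the 10% and 11.9% of all tested genes. The 4 were Xdh, Cat, Glrx3 and Txnip, and they do not share a function. Xdh is xanthine oxidoreductase, which ends purine breakdown and can itself form superoxide and peroxide. It read 8.41, 8.52 and 8.53 in vehicle and 10.11, 10.17 and 10.40 in DEX, far apart beside the spread within each group. The difference of 1.74 (SE 0.14, adjusted p = 9.71e-05, limma), 3.34-fold with a 95% interval of 2.67 to 4.19, passed under every alternative run (highest adjusted p = 0.00115).

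Cat, catalase, which breaks down peroxide in peroxisomes, read 11.38, 11.34 and 11.40 in vehicle and 12.03, 12.31 and 12.74 in DEX. The vehicle samples had an SD of 0.03 and every DEX sample was above them, with a wider spread (SD 0.36). Its log2 fold change was 0.99 (SE 0.19, adjusted p = 0.0126, limma), 1.98-fold with a 95% interval of 1.48 to 2.66, and a second probe read 1.19 (adjusted p = 0.0397, limma). The call was lost without vehicle replicate 2 (adjusted p = 0.0665) and with undetected probes kept (adjusted p = 0.0594).

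Txnip, which binds and inhibits thioredoxin, read 12.90, 12.90 and 12.94 in vehicle and 13.64, 13.61 and 13.63 in DEX, without overlap (0.71, SE 0.13, adjusted p = 0.0108, limma, or 1.63-fold). A second probe read 0.65 (adjusted p = 0.0265, limma). Glrx3, a glutaredoxin that handles iron-sulfur clusters, read 10.45, 10.34 and 10.36 in vehicle and 10.97, 11.22 and 11.53 in DEX, without overlap (0.85, SE 0.17, adjusted p = 0.0157, limma, or 1.81-fold). Its other tested probes read 0.44 and 0.23 and did not pass. Txnip missed the threshold without vehicle replicate 2 (adjusted p = 0.0794), without vehicle replicate 3 (0.0528) and with median scaling (0.56, adjusted p = 0.0500). Glrx3 missed it without vehicle replicate 2 (adjusted p = 0.0848), vehicle replicate 3 (0.0636) or DEX replicate 2 (0.0585), and with undetected probes kept (0.0502). Without vehicle replicate 2, 1 of the 4 genes (Xdh) still passed.

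**Figure D4:**
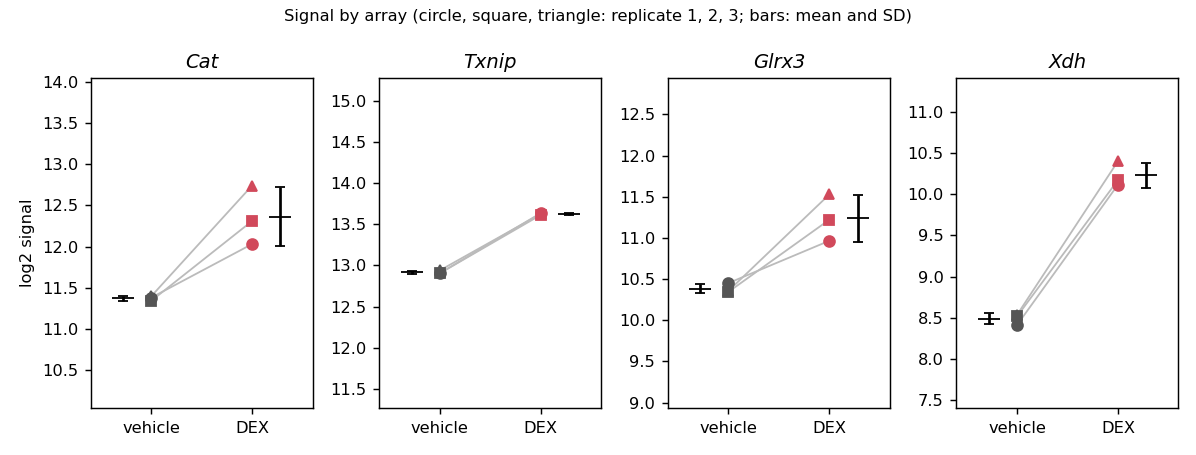
Log2 signal of Cat, Txnip, Glrx3 and Xdh on each array, vehicle (grey) and DEX (red), with a marker shape for each replicate number, grey lines joining equal numbers, black bars for the mean and SD of each group (n = 3), and y axes of equal span but different position. In all 4 panels every DEX point lies above every vehicle point, by 1.74 on average for Xdh and 0.71 for Txnip.

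Among the further genes that did not pass, 12 partners and targets of Nrf2 lay between -0.52 and 0.48, and 8 selenoproteins and factors for their synthesis between -0.31 and 0.45. The genes listed around NADPH concern the electron source for both the glutathione and the thioredoxin branch. Of 8 such genes, 1 had no probe and 2, Pgd and Nnt, were not tested, so the supply was read only in part. The 5 tested had a median of -0.37, with 4 below 0. Of these, Me1, Idh1 and Idh2 make NADPH and read -0.39, -0.37 and 0.30. Tkt (-0.24) and Taldo1 (-0.46) belong to the pentose phosphate pathway and do not make it themselves. With the replicate numbers as pairs, Gstt3 (-0.56, adjusted p = 0.0329) and Blvra, a biliverdin reductase (-0.52, adjusted p = 0.0454), were lower, and Chac1, which degrades glutathione (0.55, adjusted p = 0.0456), was higher (limma). These calls were not limited to the paired fit. Gstt3 and Chac1 also passed in the lumi values of the authors, without background correction, with an offset of 50 and with array weights. Taldo1 passed as lower in the lumi values and without background correction. With array weights, Blvra, Taldo1, Me1 and Idh1 passed as lower too. Among genes too dim to be tested, detection moved both ways. Nox4, an oxidase that produces peroxide, was not well above background on any vehicle array and was detected on 2 of 3 DEX arrays. Its bound, taken as for Gsta3 over all 3 DEX arrays, was 1.16-fold higher. A probe of Gsta1, a glutathione transferase, was detected on 2 vehicle and 0 DEX arrays (4.84 to 5.81 against 4.52 to 4.64).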

How the data were processed

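The authors deposited bead signals as intensity values with a detection p-value for each of 45281 probes per array, not normalised, and a second table of intensity values processed with lumi, with settings not given in the sources used here. Per the labels, 3 samples were DEX and 3 vehicle. Symbols came from the platform annotation, which gave 1 symbol for 34885 probes, several for 18 and none for 10378. Signals were corrected by normexp from the detection p-values (offset 16), quantile normalised and log2 transformed. Probes with a detection p-value under 0.05 on at least 3 of 6 arrays were kept (16317), and DEX was compared with vehicle by limma 3.58.1 in R 4.3.3, with Benjamini-Hochberg adjustment over all kept probes. Each gene was read by its kept probe of highest mean level. The test without pairs was run on simulated signals of independent probes, which leaves the background correction, the normalisation and the paired fit unchecked.

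Replicate numbers stand in the labels. Deviations from the group means correlated at 0.44, 0.30 and 0.25 between arrays of equal number and at -0.37 to 0.10 between others, so the numbers were taken to pair the samples. The model without pairs is the main one. Array values were given for members that passed, for up to 2 brightest members of each subgroup that did not, and for Nfe2l2 and Keap1, and those of Gsta4 and Gstm1 were added after their values were seen. The members, gene lists and rules were chosen with earlier results of these data known. The number of arrays limits the precision, and bead-level depth was not used.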

Additional observations from a re-analysis of the deposited data

How the results depend on the processing

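Xdh kept its direction and its call under all alternatives, and Gsta3 and Hmox1 kept their direction (1.67 to 2.52 and -1.55 to -1.10). Of 37 single genes over the alternatives, 476 values kept direction and side of the threshold, 15 lost a call, 7 gained one and 19 turned sign. Members higher in DEX numbered 1, and 0 with undetected probes kept, where 45281 in place of 16317 probes enter the adjustment, and 0 to 1 when 1 array was left out. Members lower numbered 1, but 2 with median scaling (Gsta4, Hmox1), 0 with undetected probes kept, 3 with the replicate block, 3 with array weights (Gclm, Gstm1, Hmox1) and 1 to 2 with 1 array left out, where without DEX replicate 2 the 1 was Gstt1. Further pathway genes higher numbered 4, but 2 with undetected probes kept, 7 with array weights and 1 to 5 with 1 array left out. Those lower numbered 0, but 1 with median scaling, 2 without background correction, 1 with an offset of 50, 2 in the lumi values, 2 with the replicate block, 5 with array weights and 0 to 1 with 1 array left out. The members' median was -0.19, -0.32 with median scaling, which moved the median of all tested probes from -0.04 to -0.13, and -0.22 to -0.12 with 1 array left out. The block, which pairs equal replicate numbers, changed no call among the members and further pathway genes other than Gclm, Gsta4, Gstt3, Blvra and Chac1. Signs turned for uncalled genes near 0. With median scaling Prdx3 read -0.12, Nfe2l2 -0.060 and Srxn1 -0.095, and with array weights Gstm5 read 0.027 and Prdx4 0.0097. With 1 array left out, Gclc ran from -0.063 to 0.22, Gstm5 from -0.17 to 0.026, Mgst3 from -0.22 to 0.062, Prdx3 from -0.12 to 0.24, Prdx4 from -0.25 to 0.077, Nfe2l2 from -0.056 to 0.17 and Srxn1 from -0.046 to 0.13. The cause of these differences was not tested. With 3 arrays a group and a median standard error of 0.17, small changes are not resolved, and dim probes such as Gclc, Gss and Gstt1 lie close to the lowest detected level of 4.97 to 5.05.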
